A study of Mus musculus with 20 samples.

Results

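The 10 genes Fos, Fosb, Fosl1, Fosl2, Jun, Junb, Jund, Egr1, Ier2 and Ier3, which encode subunits of the transcription factor AP-1 and other immediate-early proteins, were taken by symbol from the RNA-seq counts of p19/Nras cells. All 10 were found in both tables, among the 13107 genes of the Myc experiment, the 11210 of the HU experiment and the 13156 of the series as a whole. The p19/Nras line is a liver cancer line of the mouse, and all groups share its background, the loss of p19/Arf and an Nras oncogene that drove the original tumour. The Myc experiment compared Trim33-WT cells (genotype sgCtrl) with the lines Trim33-KO1 and Trim33-KO2 (sgTrim33, made with CRISPR), each carrying the empty Ctrl vector pWZL or a Myc vector, and has 6 groups with no drug. The HU experiment compared Trim33-WT with Trim33-KO cells after 4 h with vehicle or with 1 mM hydroxyurea (HU), an inhibitor of ribonucleotide reductase that slows DNA replication, and has 4 groups. Each group had 2 libraries, 20 in all. The labels do not say whether libraries came from separate cultures, so that p-values measure only the spread between these libraries, which may be technical. They also do not say which KO line was treated with HU, or whether a KO line was a clone or a pool.

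The 12 libraries of the Myc experiment held between 14753177 and 17949430 counts each, those of the HU experiment between 2315327 and 3082202. Trim33 mRNA, given as CPM (reads scaled to the TMM-normalized library total), was 245.6 and 258.1 in WT Ctrl, 123.4 and 130.4 for KO1 Ctrl and 200.9 and 206.8 for KO2 Ctrl. With the Myc vector it went against the labels, since the libraries labelled KO1 Myc (185.4 and 192.5) lay above those labelled WT Myc (130.7 and 154.7) and KO2 Myc (124.1 and 124.7). Every direction drawn from those libraries rests on their labels. In the HU experiment Trim33 mRNA was 125.2 to 142.2 CPM in the WT libraries and 43.8 to 52.2 in the KO libraries. The cells are labelled as hepatocellular carcinoma, but of 12 hepatocyte markers the Myc table lists only Afp and the HU table only Apob and Afp.

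AP-1 is a dimer of a Jun protein with a Fos or another Jun protein that binds DNA elements such as TGACTCA. Jun proteins can pair with each other, whereas Fos proteins need a Jun partner. Immediate-early genes are those that a growth factor or stress signal induces without new protein synthesis, mainly through MAP kinases that act on the factors SRF and Elk at their promoters, and Ras proteins such as Nras lie upstream of these kinases. In the liver, Jun is known for its role in regeneration and in the formation of liver tumours.

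The bases upstream of the start of 4 members are shown because Fos, Fosb and Jun rose in both KO lines with the Ctrl vector, and because Fosl2 held an E2f-type element, the class of site bound by E2f4. They are the 250 bases before the RefSeq transcription start in the build GRCm38.p6, in the direction of the gene, with motif matches in capitals.
Fos (chr12:85473640-85473889, plus strand): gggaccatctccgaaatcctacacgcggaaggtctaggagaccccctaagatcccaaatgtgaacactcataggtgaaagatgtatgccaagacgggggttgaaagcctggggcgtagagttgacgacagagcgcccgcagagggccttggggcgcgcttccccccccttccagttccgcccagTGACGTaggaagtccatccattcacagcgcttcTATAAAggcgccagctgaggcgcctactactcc
Fosb (chr7:19310046-19310295, minus strand): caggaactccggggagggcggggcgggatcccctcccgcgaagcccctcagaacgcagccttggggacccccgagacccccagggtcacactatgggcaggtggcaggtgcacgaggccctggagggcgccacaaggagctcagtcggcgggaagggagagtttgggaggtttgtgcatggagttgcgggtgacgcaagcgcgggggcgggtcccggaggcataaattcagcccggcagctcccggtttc
Jun (chr4:95052223-95052472, minus strand): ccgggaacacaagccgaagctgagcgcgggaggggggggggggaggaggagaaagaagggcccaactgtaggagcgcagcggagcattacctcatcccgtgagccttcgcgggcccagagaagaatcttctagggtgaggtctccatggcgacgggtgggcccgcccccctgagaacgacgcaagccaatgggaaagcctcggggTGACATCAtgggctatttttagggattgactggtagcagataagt
Fosl2 (chr5:32136222-32136471, plus strand): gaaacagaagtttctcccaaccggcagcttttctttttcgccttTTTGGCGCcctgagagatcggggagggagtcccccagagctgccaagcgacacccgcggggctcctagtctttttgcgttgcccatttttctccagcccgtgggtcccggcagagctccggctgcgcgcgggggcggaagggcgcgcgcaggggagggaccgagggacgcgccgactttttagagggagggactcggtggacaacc
The motifs searched, on both strands, were the AP-1 element TGACTCA, the cAMP-response core TGACGT, the Jun-type element TGACATCA, the Myc E-box CACGTG, the E2f-type elements TTTGGCGC, TTTCCCGC, TTTCGCGC or TTTGCCGC, the CArG box bound by SRF, and TATAAA. Fos held TGACGT from 66 to 61 bases before the start and TATAAA from 33 to 28, and these are found in 6.47% and 12.4% of the 32851 windows of the same length. Jun held TGACATCA from 45 to 38 bases before the start, which 2.93% of windows hold. Fosl2 held the E2f-type TTTGGCGC from 206 to 199 bases before the start, an element class found in 1.86% of windows. In Fosb, Jund, Junb and Ier3 no searched motif was matched in these bases, and these matches are a description of letters. Bases further upstream were not searched, so a motif not matched here, such as the CArG box, may lie there. TGACTCA was matched in 4.46% of all windows, CACGTG in 6.02% and the CArG box in 1.47%. Promoters of 7 of the 10 members were matched by symbol in the RefSeq table, and those of Egr1, Fosl1 and Ier2 were not used.

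In the mm9 build and the GENCODE annotation, Fos lies at chr12:86814840-86818223 (plus strand), Fosb at chr7:19888070-19895394 (minus), Fosl1 at chr19:5447703-5455945 (plus) and Fosl2 at chr5:32438845-32460204 (plus). Jun lies at chr4:94715725-94718913 (minus), Junb at chr8:87500811-87502617 (minus) and Jund at chr8:73221638-73224515 (plus). Ier2 lies at chr8:87185230-87186751 (minus), Ier3 at chr17:35958629-35959868 (plus) and Egr1 on chromosome 18. All are protein-coding genes, and Jun, Junb, Jund and Ier2 consist of 1 exon.

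To compare levels between the genes, CPM were divided by the exon length of the annotation in kilobases. In WT Ctrl cells the order was Ier3 (364 CPM per kb), Junb (227), Ier2 (66.6), Jund (58.9), Egr1 (33.3), Jun (19.6), Fosl2 (16.0), Fosl1 (10.9 and 13.0 in its libraries), Fos (6.26) and Fosb (6.11). Fos and Fosb, at the bottom, overlapped in their libraries (6.25 to 6.28 and 5.63 to 6.58), whereas no other neighbours in this order did. In the untreated WT cells of the HU experiment Ier3 (168 CPM per kb) and Junb (91.3) were again the highest, and Fosb (0.329) and Fos (0.160) were the lowest, with overlapping libraries. The WT cells of both experiments thus had Ier3 and Junb as the most abundant members and Fos and Fosb as the rarest before treatment. In the KO1 Ctrl and KO2 Ctrl groups Egr1 stood in the third place, at 104 and 106 CPM per kb, although in KO1 Ctrl its libraries overlapped with those of Ier2. Fosl1 (8.40 and 9.13) was the lowest member in both, and Fos (48.8 and 40.1) stood above Fosb, Fosl2 and Fosl1.

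**Figure D1:**
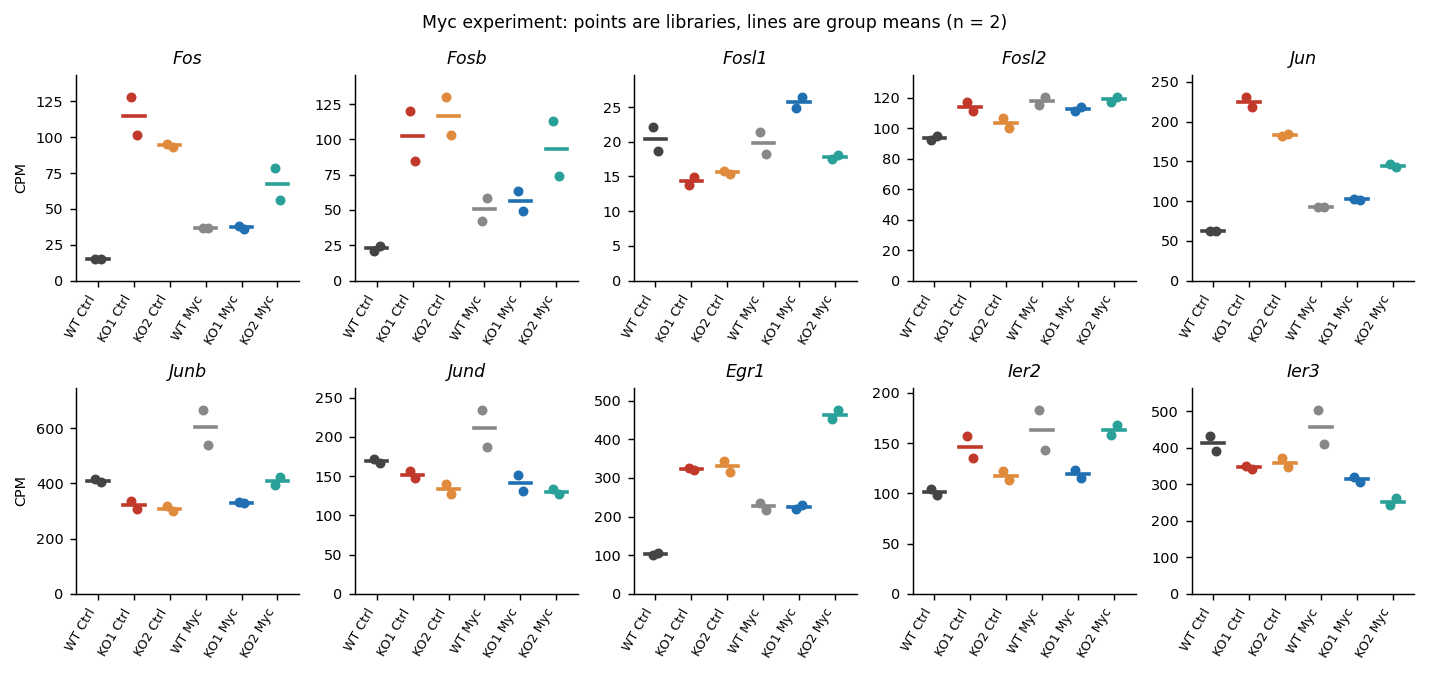
Levels of the 10 genes in the Myc experiment, in CPM on linear axes from 0; each point is a library and each line the mean of the 2 libraries of a group. Fos, Fosb, Fosl2, Jun, Egr1 and Ier2 were higher in every KO Ctrl library than in any WT Ctrl library, and Fosl1, Junb, Jund and Ier3 were lower. The share of all genes with such a separation was not counted. The levels in the libraries with the Myc vector are grouped by their labels.

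The first question was whether loss of Trim33 changed these genes in cells with the Ctrl vector. Fos, Fosb, Jun and Egr1 rose in both KO lines, by 2.93-fold to 7.79-fold, while Fosl1 and Junb fell in both by 1.27-fold to 1.42-fold. In KO1, 6 members were higher and 2 lower at an adjusted p-value below 0.01, and in KO2 4 were higher and 3 lower. Over all genes tested, 25.5% were higher and 26.7% lower in KO1, and 23.3% were higher and 26.6% lower in KO2, so that a called change was frequent in these comparisons. Both lines were compared with the same WT Ctrl libraries. In bulk RNA, fewer cells that express a gene and less RNA of it per cell cannot be told apart.

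Of the Fos family, Fos, the partner that gives AP-1 dimers with Jun their strong activity, was 14.7 and 14.8 CPM in WT Ctrl, 128.3 and 101.4 for KO1 Ctrl and 95.4 and 93.4 for KO2 Ctrl. Every KO library thus lay far above both WT libraries. The log2 fold change (log2FC) against WT was 2.96 in KO1 (SE 0.144, edgeR adjusted p = 4.24e-11) and 2.68 in KO2 (SE 0.145, edgeR adjusted p = 2.16e-10). Only 4.10% of all genes changed by more in KO1, and 3.28% in KO2. Fosb, a Fos protein best known from neurons, was 21.1 and 24.7 CPM in WT Ctrl, 119.9 and 85.0 for KO1 Ctrl and 130.2 and 103.2 for KO2 Ctrl. Its groups did not overlap either, although the KO libraries spread more than those of WT. The log2FC of Fosb was 2.16 in KO1 (SE 0.223, edgeR adjusted p = 3.61e-07) and 2.35 in KO2 (SE 0.222, edgeR adjusted p = 1.5e-07). Fosl2, a Fos protein without the activation domains of Fos, was 92.3 and 94.7 CPM in WT Ctrl, 117.2 and 111.2 for KO1 Ctrl and 106.8 and 100.6 for KO2 Ctrl. All KO libraries were higher, but the log2FC passed the threshold in KO1 (0.29, SE 0.0585, edgeR adjusted p = 0.000431) and not in KO2 (0.15, SE 0.0587, adjusted p = 0.0384). Fosl1, which in many tumour cells is the Fos protein that Ras signalling sustains, was 22.2 and 18.7 CPM in WT Ctrl, 13.7 and 15.0 for KO1 Ctrl and 15.7 and 15.4 for KO2 Ctrl. It was lower in every KO library, with a log2FC of −0.51 in KO1 (SE 0.112, edgeR adjusted p = 0.000838) and −0.39 in KO2 (SE 0.110, adjusted p = 0.00582).

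Of the Jun family, Jun was 62.6 in both WT Ctrl libraries, 231.6 and 218.4 CPM for KO1 Ctrl and 182.3 and 184.7 for KO2 Ctrl. The replicates lay close together and the groups were far apart, with a log2FC of 1.85 in KO1 (SE 0.0558, edgeR adjusted p = 1.61e-13) and 1.55 in KO2 (SE 0.0559, edgeR adjusted p = 2.79e-12). Junb, a Jun protein that can restrain the activity of Jun, moved the other way. It was 416.3 and 403.6 CPM in WT Ctrl, 336.3 and 307.3 for KO1 Ctrl and 317.2 and 300.3 for KO2 Ctrl, and its log2FC was −0.35 in KO1 (SE 0.0797, edgeR adjusted p = 0.00116) and −0.41 in KO2 (SE 0.0798, adjusted p = 0.000327). Jund, which unlike its relatives is made in resting cells, was 172.3 and 166.9 CPM in WT Ctrl, 156.4 and 147.2 for KO1 Ctrl and 140.2 and 127.4 for KO2 Ctrl. The log2FC of Jund was −0.16 in KO1 (SE 0.0906, edgeR adjusted p = 0.135) and passed the threshold in KO2 (−0.34, SE 0.0911, adjusted p = 0.00392). The difference between the lines was not tested.

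Egr1, a zinc finger factor that MAP kinase signalling induces, was 101.3 and 105.0 CPM in WT Ctrl, 327.0 and 319.5 for KO1 Ctrl and 343.5 and 316.5 for KO2 Ctrl. All KO libraries stood at about the same level, above WT, with a log2FC of 1.65 in KO1 (SE 0.0619, edgeR adjusted p = 1.99e-12) and 1.68 in KO2 (SE 0.0619, edgeR adjusted p = 3.08e-12). Ier2, a nuclear protein of the immediate-early response, was 104.2 and 98.6 CPM in WT Ctrl, 157.0 and 135.6 for KO1 Ctrl and 122.4 and 112.8 for KO2 Ctrl. It passed the threshold in KO1 (log2FC 0.53, SE 0.0971, edgeR adjusted p = 0.000170) and had a log2FC of 0.21 in KO2 (SE 0.0979, adjusted p = 0.0691). Ier3, a stress-induced regulator of cell survival, was 432.8 and 391.1 CPM in WT Ctrl, 350.0 and 342.0 for KO1 Ctrl and 370.5 and 347.6 for KO2 Ctrl. Its KO libraries all lay below those of WT, with a log2FC of −0.25 for KO1 (edgeR adjusted p = 0.0127) and −0.20 for KO2 (adjusted p = 0.0437), both short of the threshold.

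Most of the smaller changes depended on single libraries. Fosl1 missed the threshold in KO1 without WT Ctrl replicate 1 (log2FC −0.38) or KO1 Ctrl replicate 1 (−0.45), and in KO2 without WT Ctrl replicate 1 (−0.26), KO2 Ctrl replicate 1 (−0.40) or KO2 Ctrl replicate 2 (−0.37). Junb missed it in KO1 without WT Ctrl replicate 1 (−0.33) or KO1 Ctrl replicate 2 (−0.29), Fosl2 in KO1 without KO1 Ctrl replicate 1 (0.25), and Jund in KO2 without WT Ctrl replicate 1 (−0.32), WT Ctrl replicate 2 (−0.36) or KO2 Ctrl replicate 2 (−0.27). In KO2, Fosl1 also missed it with DESeq2 (adjusted p = 0.0174) and with only genes of at least 5 CPM in every library (edgeR adjusted p = 0.0131), as did Jund with the latter (0.0121). Fos, Fosb, Jun and Egr1 kept their calls in both lines without any of these libraries, as did Ier2 in KO1 and Junb in KO2. The summed level of 7 fibroblast and stellate cell markers, among them Col1a1 and Col3a1, was 191 to 192 CPM in WT Ctrl, 720 to 800 for KO1 Ctrl and 182 to 201 for KO2 Ctrl. Of the 7 markers, 4 were higher and 1 lower in KO1 Ctrl, and 2 (Col3a1 and Pdgfrb) were higher and 2 (Col1a1 and Col1a2) lower in KO2 Ctrl. Of 9 macrophage and leukocyte markers, Cd68 and Cd14 were among the genes of the table, and their sum was 22.2 to 22.4 CPM in WT Ctrl, 44.0 to 53.0 for KO1 Ctrl and 30.6 to 33.5 for KO2 Ctrl. Afp was 30.2 to 33.0 CPM in WT Ctrl, 0.798 to 0.920 for KO1 Ctrl and 8.13 to 8.56 for KO2 Ctrl. The part of other cell types in the changes of the members was not tested.

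**Figure D2:**
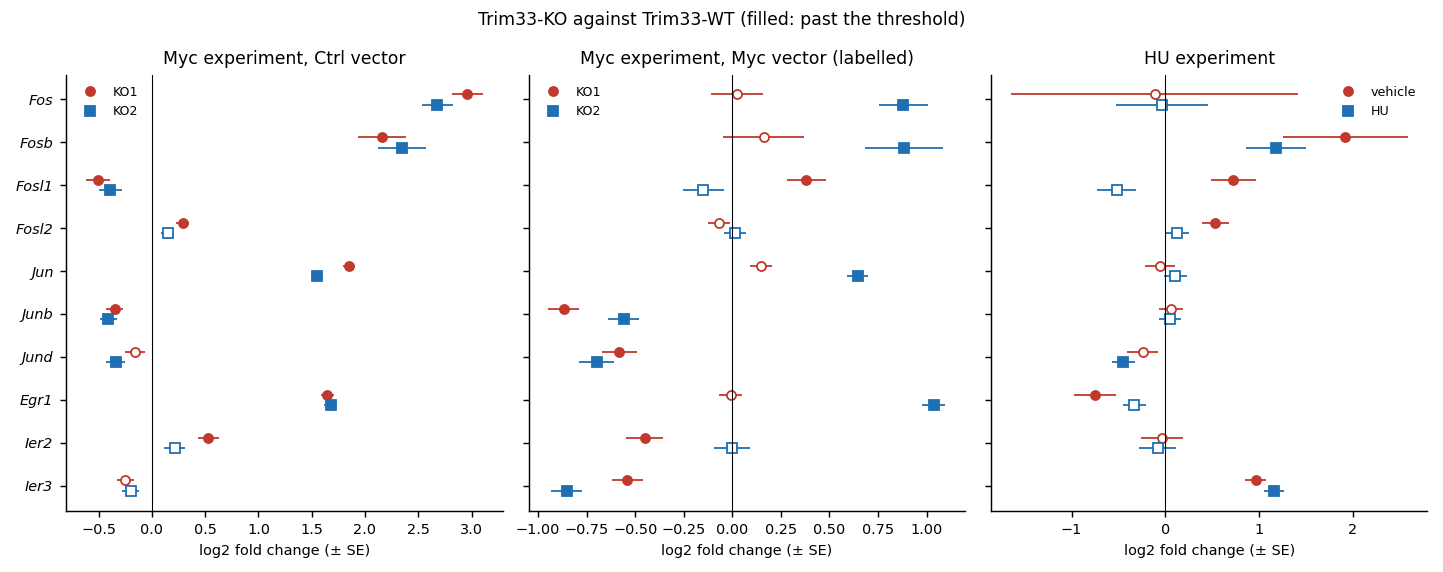
Log2 fold changes of the 10 genes in Trim33-KO against Trim33-WT cells with their standard errors, for the Ctrl vector (left), the libraries labelled as carrying the Myc vector (middle) and the HU experiment (right); filled symbols passed the threshold of their experiment. Fos, Fosb, Jun and Egr1 lie between 1.55 and 2.96 in both lines in the left panel, and Egr1 lies on the other side of 0 in vehicle-treated cells, at −0.75.

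The same genes were then followed with the Myc vector. The libraries labelled WT Myc had 8 members higher than WT Ctrl and 0 lower (21.6% of all genes were higher and 22.7% lower). Myc mRNA itself was 432.8 and 439.0 CPM in WT Ctrl and 455.9 and 457.6 in the libraries labelled WT Myc (log2FC 0.07, edgeR adjusted p = 0.310). In the KO lines it was 186.4 to 218.5 CPM with the Ctrl vector, and reached 620.9 and 645.8 with the label KO1 Myc and 459.4 and 498.8 with the label KO2 Myc. Reads of the vector and of the endogenous Myc gene cannot be told apart in these counts, and how far vector reads enter them was not tested. Trim33 mRNA was lower in WT Myc than in WT Ctrl libraries, as given above. Fos was 36.4 and 36.9 CPM in them (log2FC 1.32, SE 0.155, edgeR adjusted p = 2.94e-06), and Fosb was 42.0 and 58.6 (1.14, SE 0.232, adjusted p = 0.000578). Egr1 was 234.3 and 218.1 CPM (log2FC 1.13, SE 0.0618, edgeR adjusted p = 7.24e-10), and Ier2 was 183.0 and 143.4 (0.69, SE 0.0966, adjusted p = 1.82e-05). All of these libraries lay above those of WT Ctrl. Jun was 92.2 and 92.8 CPM (log2FC 0.56, SE 0.0570, edgeR adjusted p = 5.66e-07), Junb 665.6 and 538.4 (0.55, SE 0.0791, adjusted p = 2.08e-05), Fosl2 115.3 and 120.9 (0.34, adjusted p = 0.000136) and Jund 234.3 and 187.6 (0.31, adjusted p = 0.00694). Fosl1 (21.4 and 18.2 CPM) and Ier3 (503.4 and 409.8) overlapped with WT Ctrl (edgeR adjusted p = 0.722 and 0.128). The call of Jund was lost without WT Ctrl replicate 1 (log2FC 0.34), WT Ctrl replicate 2 (0.29) or WT Myc replicate 1 (0.15), a change of over 1.5 times in the last case, and that of Fosb was lost without WT Ctrl replicate 1 (1.03). Jund also lost it with these groups fitted alone (edgeR adjusted p = 0.0186).

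In the KO lines the Myc-vector libraries did not rise in the same way. In the libraries labelled KO1 Myc against KO1 Ctrl, 1 member was higher and 4 were lower (17.9% and 18.2% of all genes). Fos dropped to 38.2 and 36.3 CPM (log2FC −1.62, SE 0.125, edgeR adjusted p = 2.69e-08), Jun to 103.0 and 101.9 (−1.13, SE 0.0531, adjusted p = 8.33e-11), Fosb to 63.4 and 49.2 (−0.86, SE 0.198, adjusted p = 0.00191) and Egr1 to 219.9 and 230.0 (−0.52, SE 0.0589, adjusted p = 2.15e-06). Fosl1 rose to 24.9 and 26.5 CPM (log2FC 0.84, SE 0.106, edgeR adjusted p = 7.51e-06), the highest level of this gene in any library of the experiment. Ier2, at 123.0 and 115.5, had a log2FC of −0.29 (edgeR adjusted p = 0.0177). In the libraries labelled KO2 Myc against KO2 Ctrl, 4 members were higher and 3 lower (20.2% and 18.6% of all genes). Egr1 was 451.7 and 476.2 CPM there (log2FC 0.49, SE 0.0581, edgeR adjusted p = 3.63e-06), Ier2 157.7 and 168.4 (0.47, adjusted p = 0.000620), Junb 394.5 and 421.7 (0.40, adjusted p = 0.000526) and Fosl2 117.5 and 120.6 (0.20, adjusted p = 0.00832). Ier3 fell to 242.8 and 262.6 CPM (log2FC −0.51, SE 0.0814, edgeR adjusted p = 8.23e-05), Fos to 78.7 and 56.5 (−0.48, SE 0.119, adjusted p = 0.00292) and Jun to 146.8 and 142.4 (−0.34, SE 0.0521, adjusted p = 4.64e-05).

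Some of these calls rested on single libraries. Fosb in KO1 lost its call without KO1 Ctrl replicate 1 (log2FC −0.59) or KO1 Myc replicate 2 (−0.69), and with DESeq2 (adjusted p = 0.0122). In KO2, Fos lost it without KO2 Ctrl replicate 1 (−0.47), KO2 Ctrl replicate 2 (−0.50) or KO2 Myc replicate 2 (−0.26), Fosl2 without any of its 4 libraries (0.16 to 0.24), and Junb (0.36) and Ier2 (0.41) without KO2 Ctrl replicate 2, which left 3 members called. Fosl2 in KO2 also missed the threshold with the size factors of DESeq2 (0.18, edgeR adjusted p = 0.0135) and with its test (adjusted p = 0.0361). The summed fibroblast and stellate cell markers were 109 to 117 CPM with the label KO1 Myc and 722 to 736 with the label KO2 Myc, the reverse of their order in KO1 Ctrl and KO2 Ctrl. Afp, at 2.53 to 3.55 CPM with the label KO1 Myc and 0.221 to 0.297 with the label KO2 Myc, also reversed its order, as did Trim33 mRNA. The part of these markers in these differences was not tested.

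The response to the Myc vector was compared between KO and WT cells with an interaction term. In KO1 it differed from that in WT for 8 members, 1 higher and 7 lower, where 37.3% of all genes passed in either direction. In KO2 it differed for 5 members, all lower, against 32.8% of all genes. The difference in log2FC was −2.94 in KO1 (SE 0.198, edgeR adjusted p = 7.49e-09) and −1.80 in KO2 (SE 0.196, adjusted p = 1.87e-06) for Fos. It was −2.00 for KO1 (edgeR adjusted p = 5.12e-05) and −1.46 for KO2 (adjusted p = 0.000851) for Fosb, −1.70 (adjusted p = 1.14e-10) and −0.91 (adjusted p = 1.24e-07) for Jun, and −1.66 (adjusted p = 4.13e-10) and −0.64 (adjusted p = 1.39e-05) for Egr1. The KO lines, which started from higher levels of these 4 genes with the Ctrl vector, had lower responses of them than WT cells, but the KO Ctrl libraries enter both values, and both interactions share the WT libraries. In KO1 the response was also lower for Ier2 (−0.98), Junb (−0.52) and Fosl2 (−0.36) and higher for Fosl1 (0.89), and in KO2 it was lower for Ier3 (−0.65). Without KO1 Ctrl replicate 1, Junb (−0.45) and Fosl2 (−0.32) missed the threshold in KO1, as did Fosl2 without KO1 Myc replicate 1 (−0.32). Jund had a difference of −0.42 for KO1 (edgeR adjusted p = 0.0116) and passed without WT Myc replicate 2 (−0.57) or KO1 Myc replicate 1 (−0.51). Without WT Myc replicate 2, 8 members passed in KO2.

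With the Myc vector in all lines, the libraries labelled KO1 Myc had 1 member higher and 4 lower than those labelled WT Myc (12.6% and 12.5% of all genes), and those labelled KO2 Myc had 4 higher and 3 lower (17.2% and 18%). Junb, Jund and Ier3 were lower in both lines. The log2FC of Junb was −0.87 in KO1 (SE 0.0794, edgeR adjusted p = 4.36e-07) and −0.56 in KO2 (SE 0.0788, adjusted p = 2.48e-05). For Jund it was −0.58 for KO1 (edgeR adjusted p = 9.80e-05) and −0.70 for KO2 (adjusted p = 9.89e-06), and for Ier3 −0.54 (adjusted p = 7.20e-05) and −0.85 (adjusted p = 3.38e-07). Fos, Fosb, Jun and Egr1 rose in KO2, with a log2FC of 0.88, 0.88, 0.65 and 1.04 (edgeR adjusted p = 3.36e-05, 0.00176, 6.84e-08 and 6.53e-10). In KO1 none of these 4 passed (edgeR adjusted p = 0.0425 to 0.934), and Jun, with a log2FC of 0.15, had both KO1 libraries above those of WT. The difference between the lines was not tested. In KO1, Ier2 was lower (−0.45, adjusted p = 0.00143) and Fosl1 higher (0.38, adjusted p = 0.00732). Without KO1 Myc replicate 2, Ier2 (−0.41) and Fosl1 (0.33) missed the threshold and 3 members remained called. Fosl1 also missed it without KO1 Myc replicate 1 (0.45) or WT Myc replicate 2 (0.26), and Fosb missed it in KO2 without KO2 Myc replicate 1 (0.55), where its value moved by over 1.5 times. With DESeq2, Fosl1 in KO1 (adjusted p = 0.0226) and Fosb in KO2 (adjusted p = 0.0102) missed the threshold, as did Fosl1 and Ier2 in KO1 with the compared groups alone (edgeR adjusted p = 0.0365 and 0.0200).

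**Figure D3:**
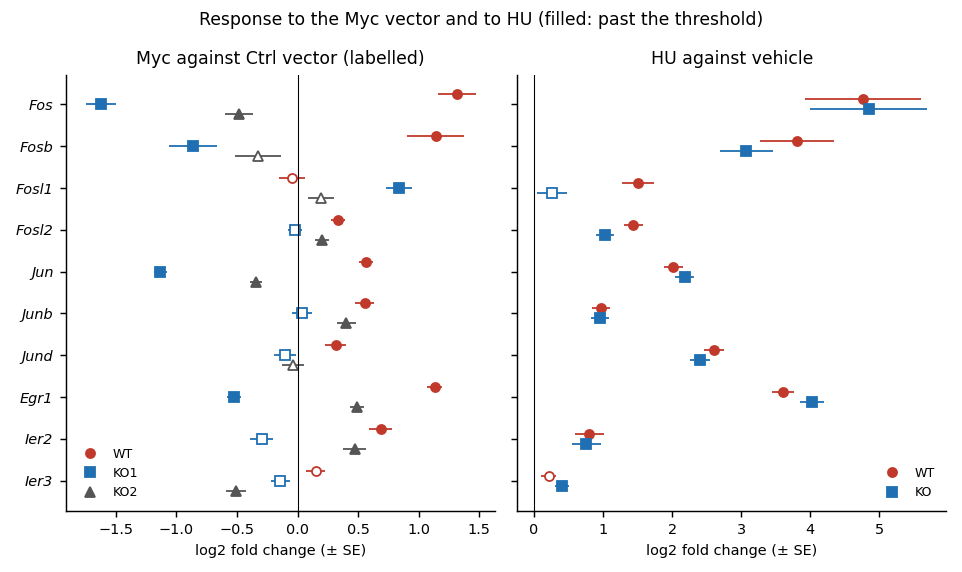
Log2 fold changes with their standard errors for the libraries labelled Myc against Ctrl vector in WT, KO1 and KO2 cells (left) and for HU against vehicle in WT and KO cells (right); filled symbols passed the threshold. Fos, Fosb, Jun and Egr1 lie between 0.56 and 1.32 in WT and between −1.62 and −0.52 in KO1 on the left, and 9 members are filled in each genotype on the right.

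HU for 4 h raised nearly the whole set in both genotypes. In WT cells 9 members were higher than with vehicle and 0 lower, where 6.39% of all genes were higher and 3.44% lower at an adjusted p-value below 0.05. In KO cells 9 were higher and 0 lower as well (4.65% and 1.8% of all genes). Every HU library lay above every vehicle library for all 10 members in both genotypes, a pattern that 26.3% of all genes showed in WT and 22.9% in KO. The members together took 0.0614% to 0.0651% of all counts in WT vehicle and 0.178% to 0.185% in WT HU.

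**Figure D4:**
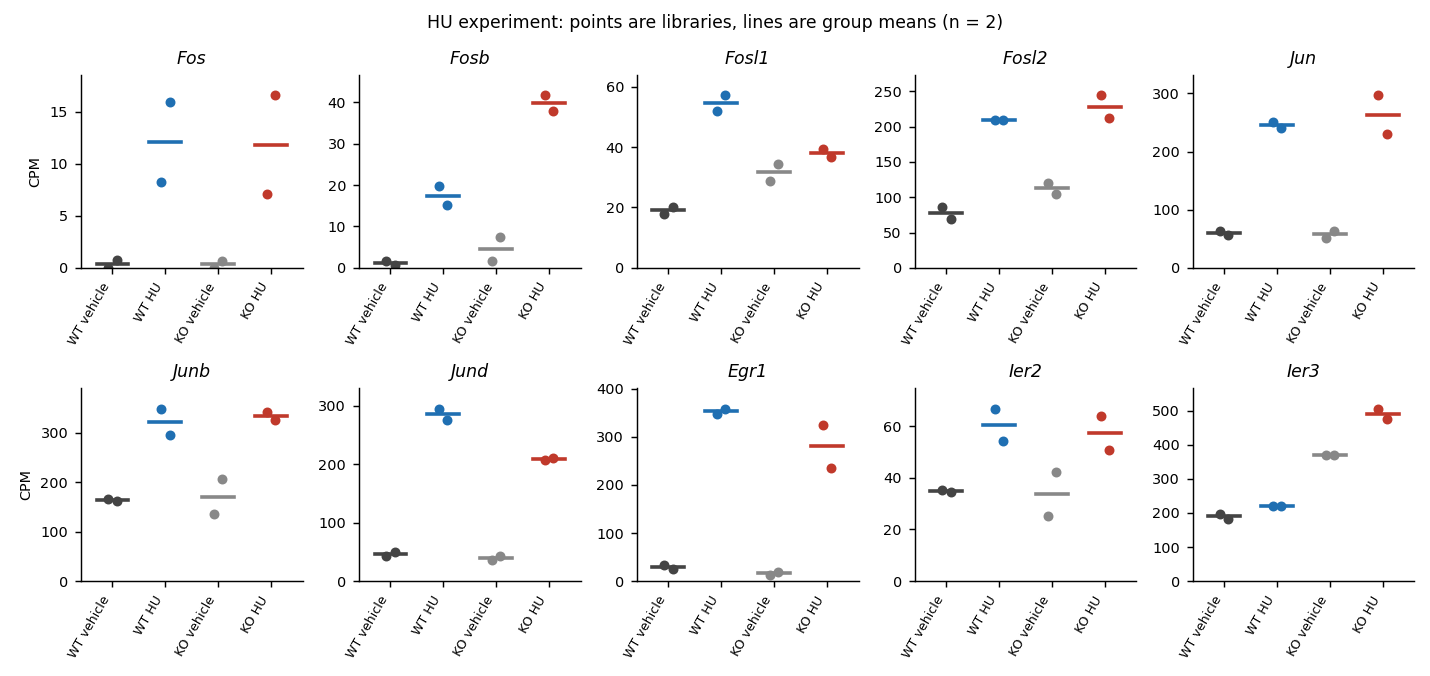
Levels of the 10 genes in the HU experiment, in CPM on linear axes from 0; each point is a library and each line the mean of the 2 libraries of a group. The HU libraries lie above the vehicle libraries of their genotype in all panels, and Ier3 differs more between genotypes than with HU.

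Of the Fos family, Fos was almost undetected without HU, with 0 and 2 counts in WT vehicle and 0 and 2 in KO vehicle. With HU it had 26 and 46 counts in WT (8.27 and 15.9 CPM) and 20 and 42 in KO (7.07 and 16.6 CPM). The ratio of HU to vehicle was 29.8 in WT (95% exact interval 7.96 to 251) and 31.5 in KO (8.37 to 266), and these intervals cover counting error only. With such counts the fitted log2FC, 4.77 and 4.84, depends on the prior count (edgeR adjusted p = 2.14e-05 in each). All Fos counts of this table were even numbers, and with halved counts the intervals widened to 5.02 to 1210 and 5.26 to 1285. Fosb was 1.71 and 0.752 CPM in WT vehicle and 19.7 and 15.2 in WT HU (log2FC 3.81, SE 0.535, edgeR adjusted p = 1.16e-07). In KO cells Fosb was 1.63 and 7.35 CPM with vehicle and 41.7 and 37.9 with HU (log2FC 3.07, SE 0.383, edgeR adjusted p = 5.77e-09). Fosl2 was 86.5 and 68.8 CPM in WT vehicle and 209.0 and 209.5 in WT HU (log2FC 1.43, SE 0.136, edgeR adjusted p = 4.37e-13), and 120.7 and 103.9 in KO vehicle and 244.3 and 212.2 in KO HU (1.03, SE 0.130, adjusted p = 8.18e-09). Fosl1 was 18.0 and 20.3 CPM in WT vehicle and 51.9 and 57.1 in WT HU (log2FC 1.50, SE 0.228, edgeR adjusted p = 8.54e-07). In KO cells it started higher and moved little, from 28.9 and 34.4 to 39.2 and 36.7 CPM (log2FC 0.26, 95% interval −0.18 to 0.70, edgeR adjusted p = 0.622).

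Of the Jun family, Jun was 64.3 and 57.1 CPM in WT vehicle and 250.1 and 240.4 in WT HU (log2FC 2.02, SE 0.141, edgeR adjusted p = 1.40e-18). In KO cells Jun went from 52.0 and 63.5 to 296.9 and 229.6 CPM (log2FC 2.18, SE 0.141, edgeR adjusted p = 3.20e-20). Jund was 42.8 and 50.4 CPM in WT vehicle and 295.3 and 275.7 in WT HU (log2FC 2.61, SE 0.142, edgeR adjusted p = 7.48e-24), and 35.8 and 42.8 in KO vehicle and 207.9 and 211.0 in KO HU (2.41, SE 0.146, adjusted p = 2.01e-21). Jund, whose log2FC was below 0 in both KO lines with the Ctrl vector, was thus raised by HU in both genotypes. Junb, the most abundant Jun gene before HU, was 166.6 and 163.2 CPM in WT vehicle and 349.4 and 295.1 in WT HU (log2FC 0.97, SE 0.127, edgeR adjusted p = 1.68e-08). In KO cells it went from 135.8 and 206.1 to 341.5 and 326.4 CPM (log2FC 0.96, SE 0.126, adjusted p = 2.38e-08). Per kilobase of exon, Junb (178) still exceeded Jund (99.2) and Jun (76.9) in WT HU.

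Egr1 had the lowest adjusted p-value of the members. It was 33.4 and 24.8 CPM in WT vehicle and 346.8 and 358.8 in WT HU (log2FC 3.61, SE 0.161, edgeR adjusted p = 4.41e-28), and 13.8 and 20.05 in KO vehicle and 325.2 and 234.7 in KO HU (4.03, SE 0.174, adjusted p = 7.19e-29). Only 0.223% of all genes changed by more in WT and 0.134% in KO. Ier2 was 35.1 and 34.6 CPM in WT vehicle, 66.8 and 54.4 in WT HU, 25.2 and 42.1 in KO vehicle and 64.0 and 50.6 in KO HU. Its log2FC was 0.80 in WT (SE 0.209, edgeR adjusted p = 0.00620) and 0.75 in KO (SE 0.210, adjusted p = 0.0154), and the call was lost in WT without WT HU replicate 1 (0.64) or WT vehicle replicate 2 (0.77), and in KO without KO vehicle replicate 1 (0.46) or KO HU replicate 1 (0.57). DESeq2 gave Ier2 in KO an adjusted p of 0.0897. Ier3 was 197.1 and 182.7 CPM in WT vehicle and 219.2 and 220.3 in WT HU (log2FC 0.21, SE 0.112, edgeR adjusted p = 0.268). In KO cells it rose from 370.0 and 369.9 to 505.8 and 475.8 CPM (log2FC 0.41, SE 0.105, edgeR adjusted p = 0.00684), a call lost without KO HU replicate 1 (0.36).

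The response to HU was then compared between genotypes with an interaction term. Of the 10 members 0 passed with edgeR and 0 with DESeq2, 2 had an unadjusted p below 0.05, and 0.0714% of all genes passed. The lowest adjusted p was that of Fosl1, whose HU response was 1.24 lower in KO on the log2 scale (95% interval −1.88 to −0.61, edgeR adjusted p = 0.220). Fosl2 was the other with an unadjusted p below 0.05 (difference −0.41, interval −0.78 to −0.03, adjusted p = 0.863). For Egr1 the difference was 0.42 (interval −0.10 to 0.94, edgeR adjusted p = 0.947). The intervals of Jun (−0.24 to 0.57), Junb (−0.37 to 0.35) and Jund (−0.62 to 0.21) contain 0, whereas that of Fos (−2.97 to 3.12) is too wide to compare the genotypes at this depth.

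Before HU, 4 members were higher and 1 was lower in KO vehicle than in WT vehicle (6.29% and 5.74% of all genes). Ier3 had the lowest adjusted p-value, with KO libraries at 370.0 and 369.9 CPM against 197.1 and 182.7 in WT (log2FC 0.96, SE 0.110, edgeR adjusted p = 5.90e-10). Fosl2 (log2FC 0.53, SE 0.142, adjusted p = 0.00759) and Fosl1 (0.73, SE 0.242, adjusted p = 0.0366) were higher in both KO libraries, and Egr1 was lower (−0.75, SE 0.226, adjusted p = 0.0200). Fosb had a log2FC of 1.92 (SE 0.663, edgeR adjusted p = 0.0450), but its libraries overlapped, and without KO vehicle replicate 2 the value was 0.42 (adjusted p = 0.853). All of these calls except that of Ier3 depended on single libraries. Fosb was lost without either WT vehicle library too (1.42 and 2.57), Fosl1 without WT vehicle replicate 1 (0.64), WT vehicle replicate 2 (0.81) or KO vehicle replicate 2 (0.59), Fosl2 without KO vehicle replicate 1 (0.41) or WT vehicle replicate 2 (0.37), and Egr1 without WT vehicle replicate 1 (−0.53) or KO vehicle replicate 1 (−0.54). With counts divided by 2, DESeq2 or the compared groups alone, 2, 3 and 2 members were called.

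With HU, Fosb and Ier3 were higher and Jund was lower in KO than in WT cells (2 higher and 1 lower, against 5.75% and 5.25% of all genes). Ier3, at 505.8 and 475.8 CPM against 219.2 and 220.3, had a log2FC of 1.16 (SE 0.107, edgeR adjusted p = 2.99e-13). Fosb, at 41.7 and 37.9 against 19.7 and 15.2, had 1.18 (SE 0.317, adjusted p = 0.00774), and Jund, at 207.9 and 211.0 against 295.3 and 275.7, had −0.45 (SE 0.120, adjusted p = 0.00798). Both KO HU libraries were also below those of WT for Fosl1 (−0.52, edgeR adjusted p = 0.0964) and Egr1 (−0.33, adjusted p = 0.0740), which did not pass. Jund lost its call without any of the 4 libraries (−0.50 to −0.40), and Fosb lost it without WT HU replicate 2 (1.01), KO HU replicate 1 (1.11) or KO HU replicate 2 (1.25), and with DESeq2 (adjusted p = 0.0588). Without WT HU replicate 2 or KO HU replicate 2, Ier3 alone remained of the 3, and Egr1 passed without KO HU replicate 1 (−0.59), with halved counts (−0.33) and with the compared groups alone (−0.33). The summed level of the 3 fibroblast and stellate cell markers in this table was 57.5 to 64.7 CPM in WT and 8.02 to 13.8 in KO, and its part in these differences was not tested.

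The directions of Trim33-KO against WT were the same in the 2 experiments for some members and not for others. Fosb (log2FC 1.92, with overlapping libraries) and Fosl2 (0.53) had values above 0 in vehicle-treated KO cells, as in both KO lines with the Ctrl vector. Jund had values below 0 in all of these, at −0.24 with vehicle (edgeR adjusted p = 0.398). Fos and Jun, raised in both KO lines with the Ctrl vector, did not pass in vehicle-treated KO cells, where the 95% interval of the log2FC was −3.18 to 2.95 for Fos and −0.38 to 0.26 for Jun. Egr1 was above WT in every KO Ctrl library and below it in both KO vehicle libraries, while Fosl1 and Ier3 were below WT in the former and above it in the latter. The tables were counted at different depths and were fitted apart, so this contrast was not tested. The share of all genes with such a reversal was not counted. In the HU experiment the vehicle cells had 24.8 to 33.4 CPM of Egr1 in WT, whereas the WT Ctrl cells had 101.3 and 105.0, a level set across separately normalized tables.

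Other genes of the pathway were counted from lists written by hand, to be read against the shares of all genes, which were 25.5% higher and 26.7% lower in KO1 Ctrl, 23.3% and 26.6% in KO2 Ctrl, 6.39% and 3.44% in WT HU and 4.65% and 1.8% in KO HU. In KO against WT they were 6.29% and 5.74% with vehicle and 5.75% and 5.25% with HU. Of 9 further AP-1 partners measured, 1 was higher and 5 lower in KO1 Ctrl, and 1 was higher and 6 lower in KO2 Ctrl, with a median log2FC of −0.39 and −0.47 (over all genes −0.004 and −0.011). Atf3, a stress-induced partner of Jun, fell in both (log2FC −2.56 and −2.63), as did Jdp2 (−1.51 and −1.64), a repressor that pairs with Jun, and Mafk (−0.97 and −0.83). With HU, 3 of the 9 were higher in WT and 3 in KO, and 0 were lower. These were Atf3 (6.26 in WT and 6.03 in KO, edgeR adjusted p = 4.41e-28 and 1.47e-29), Jdp2 (2.40 and 2.05) and Maff (1.86 and 1.55). Atf3 and Jdp2 thus fell in KO Ctrl cells where Fos and Jun rose, and rose with HU together with them.

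Of 30 other immediate-early genes measured in the Myc experiment, 13 were higher and 13 lower in KO1 Ctrl, and 12 were higher and 12 lower in KO2 Ctrl. The list as a whole did not move one way, with a median log2FC of −0.12 in each line. Zfp36, which encodes an RNA-binding protein that speeds the decay of cytokine mRNA, rose in both (2.35 and 2.11), as did Gadd45b (2.19 and 1.11), a stress-response gene. Ptgs2, the inducible cyclooxygenase, fell in both (−1.86 and −1.87), as did Klf4 (−1.48 and −1.12). With HU, 20 of 31 measured genes were higher and 1 lower in WT, with a median of 1.20, and 18 were higher and 1 lower in KO, with a median of 0.80 (over all genes 0 and −0.010). Egr3, a relative of Egr1, rose in both (3.87 and 5.83), as did Btg2 (2.79 and 3.20), a p53-responsive antiproliferative gene, and Dusp1 (3.86 and 3.09), a phosphatase that shuts off MAP kinases. Ccn2, a matricellular protein gene, fell in both (−0.54 and −0.56). In KO against WT, 6 of the 31 were higher and 2 lower with vehicle, led by Nr4a2 (2.03) and Zfp36 (1.49), and 2 were higher and 4 lower with HU, led by Ccn1 (1.50) and Tiparp (−0.98).

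Of 21 inducing kinases and SRF or Elk factors, 9 were higher and 6 lower in KO1 Ctrl, and 9 were higher and 5 lower in KO2 Ctrl. Elk3, a ternary complex factor, rose in both (1.18 and 0.70), as did the kinase gene Rps6ka1 (0.91 and 1.71), while Rps6ka3 (−1.64 and −0.85) and Map2k6 (−1.09 and −1.09) fell. With HU, 1 of the 21 was higher in WT (Map2k3, 0.46) and 0 in KO. Of 11 MAP kinase feedback inhibitors, 1 was higher and 7 lower in each KO line with the Ctrl vector, with a median log2FC of −0.75 and −0.41. Dusp4, a nuclear MAP kinase phosphatase, fell the most in both (−2.06 and −1.67), and the gene that rose was Dusp6 (0.45 and 0.30). With HU, 5 of the 11 were higher in WT and 6 in KO, and 0 were lower, led by Dusp8 (4.49 and 2.25) and Dusp16 (2.21 and 2.21). With vehicle, 3 of the 11 were higher in KO than in WT cells, Dusp8 (2.53), Dusp5 (0.85) and Dusp4 (0.66), and with HU 1 was, Dusp5 (0.85).

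Of 20 known AP-1 target genes, 7 were higher and 9 lower in KO1 Ctrl, and 5 were higher and 12 lower in KO2 Ctrl, with a median log2FC of −0.02 and −0.42. The numbers higher were near the shares of all genes (25.5% and 23.3%). The protease gene Plau (1.38 and 1.68) and the chemokine gene Ccl2 (1.58 and 0.59) rose in both lines. The growth factor gene Areg (−2.92 and −2.49) and Plaur, the receptor gene of Plau (−1.49 and −1.25), fell in both. With HU, 8 of 15 measured targets were higher in WT and 9 in KO, and 0 were lower, with a median of 0.43 and 0.68. Areg (2.20 and 2.16) and Ereg (1.69 and 2.03), which encode ligands of the EGF receptor, rose in both genotypes. With vehicle 4 targets were higher and 4 lower in KO than in WT cells, among them Areg (0.78) and Plau (−1.72), both opposite in sign to their values in the KO lines with the Ctrl vector.

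With the Myc vector, 21.6% of all genes were higher and 22.7% lower in WT, with 17.9% and 18.2% for KO1 and 20.2% and 18.6% for KO2, and several of the following counts lie at or below these shares. In the libraries labelled WT Myc against WT Ctrl, 1 of the 9 AP-1 partners was higher and 3 lower, 13 of the 30 immediate-early genes were higher and 8 lower, 5 of the 21 kinases and factors were higher and 4 lower, 1 of the 11 feedback inhibitors was higher and 5 lower, and 3 of the 20 targets were higher and 11 lower. Dusp2, another MAP kinase phosphatase, rose by 1.94, Ccl2 by 2.45, and Areg fell by 1.32 on the log2 scale. In KO1 the counts of the lists in the same order were 4 and 1, 10 and 16, 3 and 6, 5 and 2, and 4 and 8. In KO2 they were 3 and 1, 12 and 5, 3 and 8, 2 and 3, and 8 and 5. Jdp2 rose in KO1 and KO2 (1.52 and 1.49), as did Atf3 (1.09 and 1.54). Zfp36 fell in KO1 (−1.66), and Egr2, a relative of Egr1, fell in KO1 (−1.56) and rose in KO2 (1.77). Against the libraries labelled WT Myc, where 12.6% and 12.5% of all genes passed in KO1 and 17.2% and 18% in KO2, 1 AP-1 partner was higher and 4 lower in KO1 and 0 and 2 in KO2, 5 immediate-early genes were higher and 9 lower in KO1 and 10 and 10 in KO2, and 5 targets were higher and 5 lower in KO1 and 7 and 6 in KO2. Of the kinases and factors 4 were higher and 3 lower in KO1 and 6 and 3 in KO2, and of the feedback inhibitors 1 and 3, and 0 and 3.

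**Figure D5:**
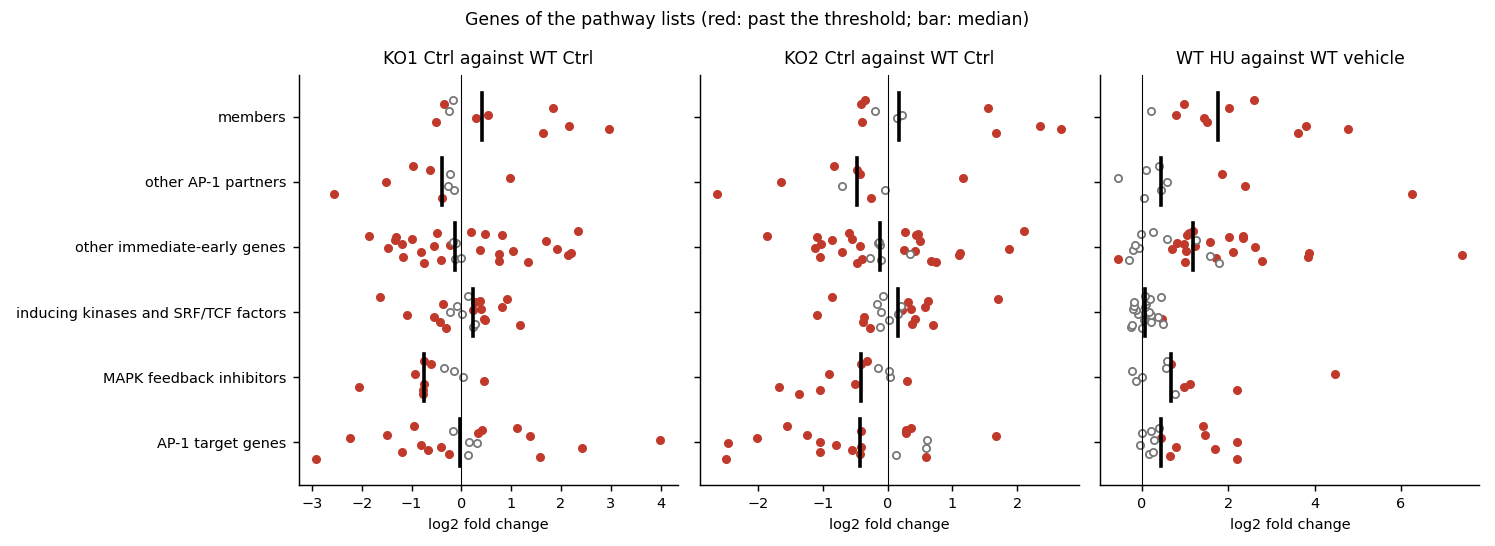
Log2 fold changes of the genes of each list in KO1 Ctrl and KO2 Ctrl against WT Ctrl and in WT HU against WT vehicle; each point is a gene, red points passed the threshold and the bar is the median of the list. With HU the members have a median of 1.76 and the kinases and factors 0.08, whereas with the Ctrl vector the members spread to both sides of 0 in each KO line.

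The genes whose levels varied most like those of the members were found by Pearson's r of log2 CPM over the libraries of an experiment, as a description over libraries that share groups. Over the 12 libraries of the Myc experiment Fos lay close to Jun (r = 0.985) and Lhx6 (0.984), Jun to Cavin1 (0.996), Lhx6 (0.991) and S100a4 (0.989), and Egr1 to Fkbp5 (0.984), Fbxo5 (0.982) and Map3k14 (0.974). Over the 8 libraries of the HU experiment Fos lay close to Pparg (0.981) and Mpp7 (0.975), Jun to Dusp16 (0.994), Ptpn14 (0.994) and Nr4a1 (0.994), and Egr1 to Fat1 (0.992), Ndrg1 (0.991) and Nr4a1 (0.989). Fos had 0 or 2 counts in each vehicle library there, so that these values of it lie near the floor of log2 CPM. Among the members, Fos and Jun (0.985), Fos and Fosb (0.963) and Fosb and Jun (0.923) lay closest in the Myc experiment, while Fosl1 ran against Jun (−0.728) and Fos (−0.697). In the HU experiment Egr1 lay close to Jun (0.988) and Jund (0.988), and Ier3 was the member least like the others, with r from 0.139 upwards.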

How the data were processed

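RNA-seq libraries of p19/Nras cells were analysed from the deposited tables of counts, which are whole numbers of reads per gene. The authors named the Myc table as normalized counts, but its values are whole numbers whose totals differ between libraries, and both tables were used as raw counts. The tables list genes with a total of at least 26 (Myc) and 29 (HU) counts over their libraries. Per the labels, reads were mapped to mm9 with STAR 2.5.4 and tested with edgeR 3.26.8, and bcl2fastq 2.20 and FastQC 0.11.5 are named for the HU libraries. Extraction and library kit are TRIzol and NEBNext Ultra II per the labels but RNeasy and NEBNext Ultra per the study's methods. The counting tool and its annotation are not given in the sources used here. The authors also deposited tables of their own comparisons (log2 fold change, log CPM, F score, p-value and adjusted p-value), which were not used.

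Each table was fitted alone with edgeR 4.0.16 (limma 3.58.1, R 4.3.3), using TMM factors, filterByExpr, which removed 0 genes, and a quasi-likelihood test on 1 coefficient for each group, with Benjamini-Hochberg adjustment over its 13107 or 11210 genes. The threshold was 0.01 for the Myc and 0.05 for the HU experiment. TMM factors were 0.958 to 1.019 and 0.982 to 1.020, and the biological coefficient of variation was 0.0498 and 0.102. With 2 libraries per group, no permutation test can give a p-value below 0.333. The scripts were tested on simulated data. Alternatives were the size factors of DESeq2 (version 1.42.0), its test, no filter, at least 5 CPM in every library, a replicate block, the compared groups alone, HU counts divided by 2 and leaving out each library, where the lone library of a group is assumed to vary like the others.

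The members and lists were chosen with earlier results of these data known. Named were all members, Trim33 and Myc, up to 3 called genes of each list with the largest rise and fall among those with at least 5 CPM on average, of which the text prints those that show the range, and the 3 genes most like Fos, Jun and Egr1, of which some are not reported here. Further lists were markers of macrophages and leukocytes (2 of 9 listed, Cd68 and Cd14, at 22.2 to 55.3 CPM in sum) and of endothelium (0 of 5). Of counts from 1 to 50, 71.9% were even numbers in the HU table and 48.4% in the Myc table, and all HU counts of Fos, Fosb, Jund and Egr1 were even. Gene positions came from GENCODE M1 and upstream bases from RefSeq.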

Additional observations from a re-analysis of the deposited data

Results flagged for a closer look

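The response to the Myc vector differed between Trim33-KO and WT cells, by the interaction term of edgeR, for 8 of 10 members in KO1 and 5 of 10 in KO2, where 37.3% and 32.8% of all genes passed. In KO1 the difference in log2FC was −2.94 for Fos, −2.00 for Fosb, −1.70 for Jun, −1.66 for Egr1, −0.98 for Ier2, −0.52 for Junb, −0.36 for Fosl2 and 0.89 for Fosl1. In KO2 it was −1.80 for Fos, −1.46 for Fosb, −0.91 for Jun, −0.65 for Ier3 and −0.64 for Egr1. The libraries with the Myc vector are those in which Trim33 mRNA goes against the labels. From the Ctrl to the Myc libraries the order of KO1 and KO2 reversed for Trim33, Afp and the summed fibroblast and stellate cell markers. Each Myc response of a KO line therefore rests on these labels.

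For 3 members the effect of Trim33-KO pointed one way in every library with the Ctrl vector. It pointed the other way in every vehicle-treated library of the HU experiment. This difference between experiments was not tested, and the share of all genes with the same pattern was not counted. All 10 members had libraries apart from WT in both KO Ctrl lines, 6 above and 4 below. With vehicle 3 members lay above WT, 2 lay below and 5 overlapped. Of those that did not overlap with vehicle, Fosl2 and Jund kept the direction of both KO Ctrl lines. In vehicle-treated KO against WT cells the log2FC was −0.75 for Egr1, 0.73 for Fosl1 and 0.96 for Ier3, with the opposite sign in both KO1 Ctrl and KO2 Ctrl. Ier3 missed the threshold in both KO Ctrl lines (edgeR adjusted p = 0.0127 and 0.0437), but it passed in both with the compared groups alone. In KO1 Ctrl it also passed with DESeq2 and with a replicate block. The vehicle calls of Fosl1 and Egr1 were lost when single libraries were left out.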

How the results depend on the processing

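Of the 86 member values past the threshold, 0 changed sign under any alternative run, leave-one-out included. Over the member values printed, 596 of 632 recalculations other than leave-one-out kept the side of the threshold, 20 lost the call and 16 gained it, and with 1 library left out 413 of 472 kept it, 56 lost it and 3 gained it. For KO vehicle against WT vehicle the number of members called moved from 5 to 3 with DESeq2, 2 with counts divided by 2 and 2 with the compared groups alone, where 8 members were measured because the filter dropped the others. With the compared groups alone it moved from 5 to 3 for KO1 Myc against WT Myc and from 3 to 5 for KO HU against WT HU. In the same setting it moved from 8 to 10 for KO1 Ctrl and from 7 to 10 for KO2 Ctrl, each against WT Ctrl. With 1 library left out it ranged from 2 to 3 for KO vehicle against WT vehicle, from 1 to 2 for KO HU against WT HU, from 3 to 5 for KO1 Myc against WT Myc, from 3 to 6 for KO2 Myc against KO2 Ctrl (7 with all libraries) and from 5 to 8 for the KO2 interaction (5 with all libraries). Same-numbered replicates did not deviate together (r of deviations −0.148 to 0.192 in the Myc experiment and −0.0136 to 0.051 in the HU experiment), so that the numbers were not taken as pairs. With a replicate block 9 members were called in KO1 Ctrl against WT Ctrl in place of 8, 9 in place of 8 in the KO1 interaction, 6 in place of 5 in the KO2 interaction and for KO1 Myc against KO1 Ctrl, and 4 in place of 3 for KO HU against WT HU. Genes of the pathway lists were not recomputed under the alternatives. The depth of the HU experiment limits Fos and Fosb, which had at most 22 counts in any vehicle library.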
